A study of Mus musculus with 48 samples.

Results

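Adipokines are the proteins that fat tissue secretes into blood or into its own surroundings. The transcripts of 9 of them other than leptin were followed here: Adipoq, Retn, Cfd, Rbp4, Angptl8, Angptl4, Nampt, Cxcl14 and Orm3. They were picked by gene symbol, with earlier results of these data known, and all 9 were found among the 47729 genes of the deposited table. Counts of members set beside the share of all genes are therefore descriptions. The libraries were poly(A) RNA-seq of snap-frozen brown (BAT), subcutaneous (SFAT) and visceral (EFAT) fat of male mice. The mice were Cth+/+ (wild type) or Cth-/- (knockout), the knockout lacking cystathionine gamma-lyase, which splits cystathionine to yield cysteine in the transsulfuration pathway. Each genotype received a control diet or a diet without cystine for 6 days, which gave 12 groups of 4 libraries and 48 in all. The knockout is labelled as a whole-animal genotype with no tissue-specific driver, and the labels give neither strain nor age. Replicates are labelled only by number, so each p-value measures the spread between libraries of a group, part of which may be technical.

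The members do different jobs. Adiponectin (Adipoq) is an insulin-sensitising hormone made almost only by adipocytes, and resistin (Retn) is in mice an adipocyte product that opposes insulin. Complement factor D, or adipsin (Cfd), is the serine protease that cuts factor B and so starts the alternative complement pathway. Retinol-binding protein 4 (Rbp4) carries vitamin A in blood, and orosomucoid 3 (Orm3) belongs to the lipid-binding acute-phase proteins. Angptl4 and Angptl8 are angiopoietin-like proteins that restrain lipoprotein lipase, the enzyme that frees fatty acids from blood lipoproteins. Angptl4 is a textbook PPAR target raised by fasting, whereas Angptl8 is raised by feeding and insulin. Nampt, also called visfatin, catalyses the rate-limiting step of NAD salvage, and Cxcl14 is a chemokine.

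The libraries held between 22.1 and 46.0 M counts in BAT, between 16.2 and 39.0 M in SFAT, and between 18.7 and 36.1 M in EFAT. Levels are given as CPM, the counts of a gene per 1000000 counts of the library, scaled over all 48 libraries. Cth itself was at 0.485 to 2.55 CPM in wild-type BAT on the control diet, at 6.11 to 9.60 in SFAT and at 8.15 to 10.8 in EFAT, and at no more than 0.151 CPM in any knockout library, as labelled. Ucp1, the defining gene of brown fat, was at 2295 to 4092 CPM in wild-type BAT on the control diet against 1.53 to 54.9 in SFAT and 0 to 0.194 in EFAT. A list of 23 measured adipocyte genes, members left out, summed to 32059 to 34961, 29963 to 37213 and 35114 to 42844 CPM there. Libraries were set apart where mitochondrial counts were over 2 times the median of the depot or, in BAT, where skeletal muscle genes were over 5 times it, and 4 met this. A BAT library of wild-type mice on the cystine-free diet, number 8, carried 7617 CPM of skeletal muscle genes, 6.90 times the median of its depot. Mitochondrial counts were over 2 times the depot median in some libraries of knockout mice on the cystine-free diet. These were SFAT number 20 (31.3% of counts) and EFAT numbers 17 and 20 (14.7% and 14.4%). The others of that genotype and diet stood between 0.697 (EFAT number 16) and 1.37 (BAT number 20) times their depot median. SFAT number 20 also carried 1574 CPM of muscle genes, 17.1 times the SFAT median. SFAT numbers 15 (knockout, control diet) and 16 (knockout, cystine-free diet), at 6.52 and 6.93 times that median, were not among the 4. The SFAT count of members called and the Cxcl14 value are therefore also given without them, and values without the 4 are given where a call of the diet comparison was lost.

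Promoter windows from RefSeq (GRCm38.p6, 250 bases before to 50 after the annotated start, gene strand, 5′ to 3′) are shown for 4 members: Rbp4 and Nampt, which passed the diet test in the knockout of all 3 depots, Angptl8, which had the largest fitted change, and Cfd, the most abundant per kilobase in white fat. Windows were found for 8 of the 9 members, 9 in all, since Rbp4 has a pair of annotated starts. Capitals mark matches on either strand to any of 9 searched motifs. The TATA box was searched as TATAAA, which 13.6% of all 32851 windows of that length hold, and the CCAAT box by those 5 letters, which 37.4% hold. The GC box was searched as GGGCGG and is held by 35.7% of windows. For the E-box the letters were CACGTG, in 7.15% of windows, and for the cAMP response element TGACGTCA, in 1.79%. The site of C/EBP factors was searched as TTGCNNAA, in 10.8% of windows, and that of ATF4 with a C/EBP partner as TGATGNAAT, in 0.965%. The core of the antioxidant response element was TGACNNNGC, in 12.4%, and the glucocorticoid half-site TGTTCT, in 19.0% of windows. Motifs can overlap, and a match is a description of letters, not of a bound site.
Rbp4, chr19:38124762-38125061 (- strand): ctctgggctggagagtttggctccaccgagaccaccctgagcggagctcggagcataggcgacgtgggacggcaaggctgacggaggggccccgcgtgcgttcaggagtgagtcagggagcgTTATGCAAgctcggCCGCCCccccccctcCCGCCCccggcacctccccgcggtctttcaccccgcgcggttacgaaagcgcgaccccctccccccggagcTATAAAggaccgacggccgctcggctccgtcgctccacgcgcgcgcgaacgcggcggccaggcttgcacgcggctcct
Rbp4, chr19:38125272-38125571 (- strand): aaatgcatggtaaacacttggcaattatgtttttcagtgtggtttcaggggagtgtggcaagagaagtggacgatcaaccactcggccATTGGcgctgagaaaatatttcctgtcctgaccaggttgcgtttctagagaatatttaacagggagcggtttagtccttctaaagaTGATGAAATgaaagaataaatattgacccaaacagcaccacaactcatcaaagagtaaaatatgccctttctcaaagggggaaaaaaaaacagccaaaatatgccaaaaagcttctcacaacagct
Nampt, chr12:32820085-32820384 (+ strand): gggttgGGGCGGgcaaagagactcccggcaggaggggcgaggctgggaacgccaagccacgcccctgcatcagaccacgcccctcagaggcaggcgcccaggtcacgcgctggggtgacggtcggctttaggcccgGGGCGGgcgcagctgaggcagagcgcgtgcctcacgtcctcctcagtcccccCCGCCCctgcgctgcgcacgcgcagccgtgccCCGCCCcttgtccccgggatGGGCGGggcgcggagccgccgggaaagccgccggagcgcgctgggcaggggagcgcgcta
Cfd, chr10:79890603-79890902 (+ strand): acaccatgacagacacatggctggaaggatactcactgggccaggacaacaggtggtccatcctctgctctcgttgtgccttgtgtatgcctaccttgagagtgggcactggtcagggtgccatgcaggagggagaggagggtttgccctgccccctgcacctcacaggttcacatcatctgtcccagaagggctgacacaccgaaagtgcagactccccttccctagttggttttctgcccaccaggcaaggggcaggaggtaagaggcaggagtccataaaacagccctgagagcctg
Angptl8, chr9:21835260-21835559 (+ strand): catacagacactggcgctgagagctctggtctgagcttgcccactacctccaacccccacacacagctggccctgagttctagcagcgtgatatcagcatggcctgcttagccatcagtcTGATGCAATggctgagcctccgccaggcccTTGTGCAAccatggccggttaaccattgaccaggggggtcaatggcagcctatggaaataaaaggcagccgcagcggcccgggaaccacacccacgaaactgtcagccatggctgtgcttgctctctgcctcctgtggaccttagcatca
The upstream Rbp4 start has a CCAAT box at -162 and the ATF4 composite letters at -76, counted from the start, and the downstream one has C/EBP letters at -128, GC boxes at -114 and -99 and a TATA box at -28. The Nampt window has 5 GC boxes and none of the other 8 motifs. The Angptl8 window has the ATF4 composite letters at -130 and C/EBP letters at -100. The Cfd and Retn windows hold none of the 9. The Orm3 window has C/EBP letters at -121 and a TATA box at -29, the Adipoq window has 3 CCAAT boxes, and the Cxcl14 window has 3 GC boxes and 1 glucocorticoid half-site.

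In wild-type mice on the control diet, adiponectin and adipsin were the most abundant of the 9 transcripts in every depot. Compared per kilobase of exon, Adipoq stood at 400.2 ± 8.63 CPM per kb (SD, n = 4) in BAT, within the spread of Cfd at 383 ± 147. In white fat Cfd led, with 2759 ± 565 CPM per kb in SFAT and 1399.8 ± 757 in EFAT, followed by Adipoq at 1118 ± 126 and 1026 ± 147, in EFAT within the spread of Cfd. The scarcest were Orm3 in BAT and SFAT, at 6.61 ± 2.32 and 2.11 ± 0.333, and Cxcl14 in EFAT, at 2.15 ± 0.654 CPM per kb. Against BAT, 7 of 9 members passed the test in SFAT, where 53.0% of all genes did, and 6 of 9 in EFAT, where 60.0% did. Between the white depots 1 of 9 passed, against 15.2% of all genes.

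Retn showed the widest gap between brown and white fat: 77.1, 44.3, 38.2 and 32.2 CPM in the 4 BAT libraries, 718, 757, 623 and 525 in SFAT and 826, 1019.6, 836 and 651 in EFAT. Every white fat library was above every brown one, by 3.75 ± 0.33 log2 (estimate ± SE) in SFAT and 4.08 ± 0.34 in EFAT (adjusted p = 2.01e-12 and 2.25e-13). Rbp4 was higher in white fat by 1.39 ± 0.34 and 1.81 ± 0.34 log2, Cfd by 2.83 ± 0.38 and 1.83 ± 0.37, and Adipoq by 1.46 ± 0.16 and 1.32 ± 0.15. Nampt ran the other way, lower in white fat by 1.84 ± 0.19 in SFAT and 1.83 ± 0.19 in EFAT on the log2 scale. Cxcl14 separated the white depots from each other: 53.6, 44.7, 42.8 and 38.2 CPM in SFAT against 5.37, 2.52, 4.25 and 3.60 in EFAT, with 15.1, 17.6, 16.5 and 16.7 in BAT. The SFAT libraries were all above the EFAT ones (EFAT minus SFAT -3.52 ± 0.38 log2, adjusted p = 6.45e-09). Scaling by library totals alone moved the median of all genes by 1.05 and 1.13 log2 in the comparisons with BAT. No member that had passed turned direction under it, but Nampt was then at -0.82 and -0.79, and Orm3, -1.67 ± 0.43 log2 in SFAT minus BAT, had an adjusted p of 0.154.

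**Figure D1:**
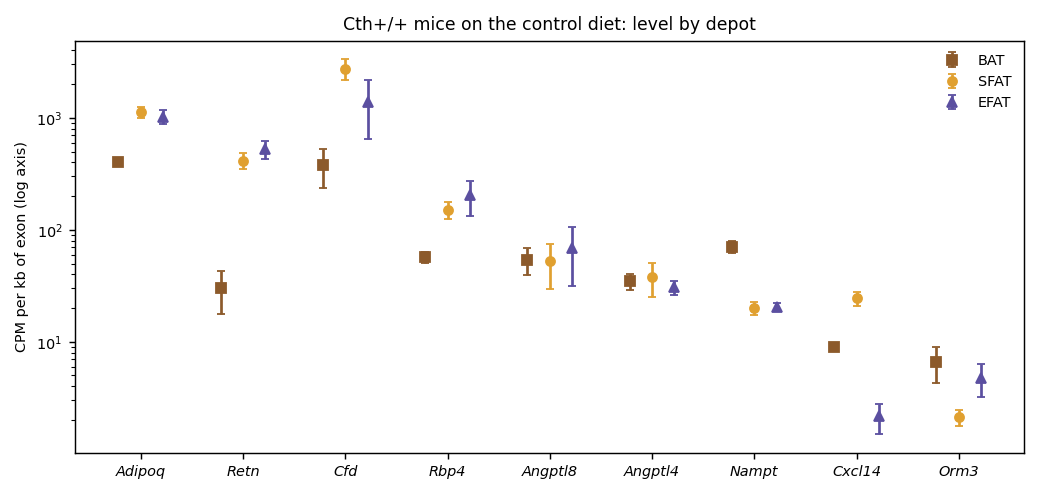
Level of each adipokine in wild-type mice on the control diet, in CPM per kilobase of exon on a log axis, by depot; points are means of 4 libraries and bars are 1 SD. Cfd and Adipoq stand at the top in each depot, and Retn, Rbp4 and Cfd are lower in BAT than in white fat.

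The design asks what removal of dietary cystine does to fat of mice that lack the last enzyme of cysteine synthesis. In knockout mice some adipokines rose and others fell in each depot. In BAT 5 of 9 members passed (adjusted p under 0.05), where 18.0% of all genes did (7.81% higher and 10.2% lower): Nampt, Cxcl14 and Orm3 rose, and Rbp4 and Angptl4 fell. In SFAT 4 of 9 passed, against 25.4% of all genes (11.8% higher and 13.6% lower): Cfd and Nampt rose, and Rbp4 and Cxcl14 fell. In EFAT 5 of 9 passed, against 28.8% of all genes (14.5% higher and 14.3% lower): Nampt rose, and Retn, Rbp4, Angptl8 and Orm3 fell. Nampt and Rbp4 were the members that passed in all 3 depots. The median change of the 9 was 0.28 log2 in BAT, 0.09 in SFAT and -0.44 in EFAT, beside -0.01, 0.03 and 0.07 for all genes tested. Without the libraries that stood apart, 5 passed in BAT and 4 in SFAT (17.2% and 22.4% of all genes). In SFAT also 4 passed when numbers 15 and 16 were left out too (Cfd, Nampt, Rbp4 and Cxcl14, against 10.1% of all genes). That alternative, added after the data were seen, left only numbers 17 and 18 of the cystine-free knockout group. Without the libraries that stood apart, 2 of the 4 EFAT libraries of that group remained. There 0 of 9 passed, beside 9.57% of all genes (1698 of 17750), where 28.8% (4976 of 17248) passed with every library.

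In wild-type mice no member passed the test of the same diet in any depot. The edgeR test called 0 of 9 in each, where 0.0826% of all genes passed in BAT, 0.0664% in SFAT and 0.0% in EFAT. With an unadjusted p under 0.05 there were 0, 1 and 0 members, the 1 being Adipoq in SFAT at -0.32 ± 0.12 log2 (adjusted p = 0.256). DESeq2, which called 163, 435 and 36 genes in BAT, SFAT and EFAT, also called none of the 9.

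**Figure D2:**
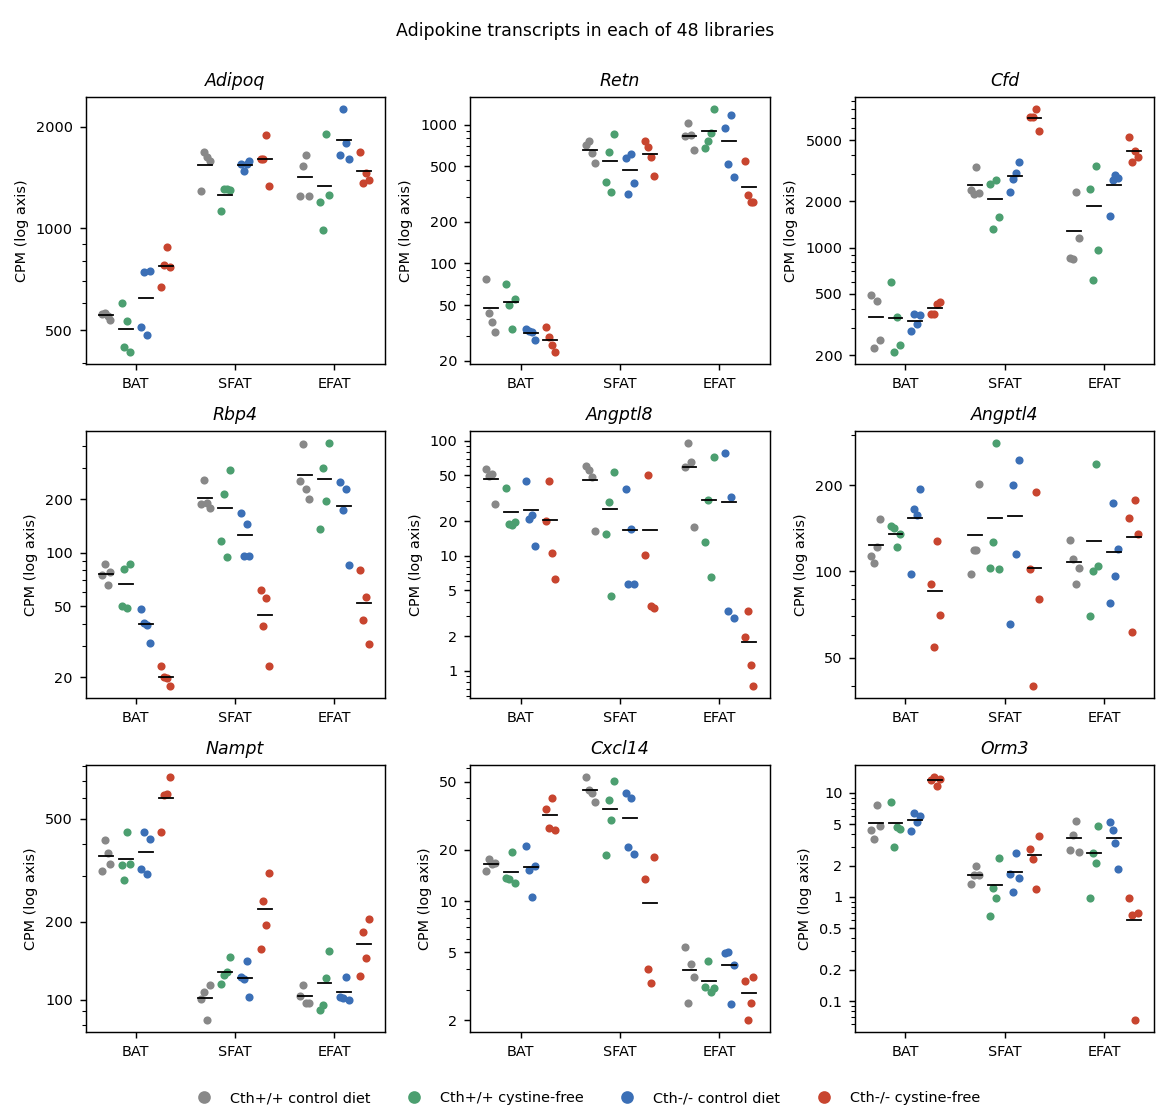
CPM of each of the 9 adipokines in all 48 libraries (log axis), by depot, genotype and diet; each point is 1 library and each bar is the mean of 4. Rbp4 is lowest and Nampt highest in knockout mice on the cystine-free diet within each depot, while Orm3 moves up in BAT and down in EFAT.

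**Figure D3:**
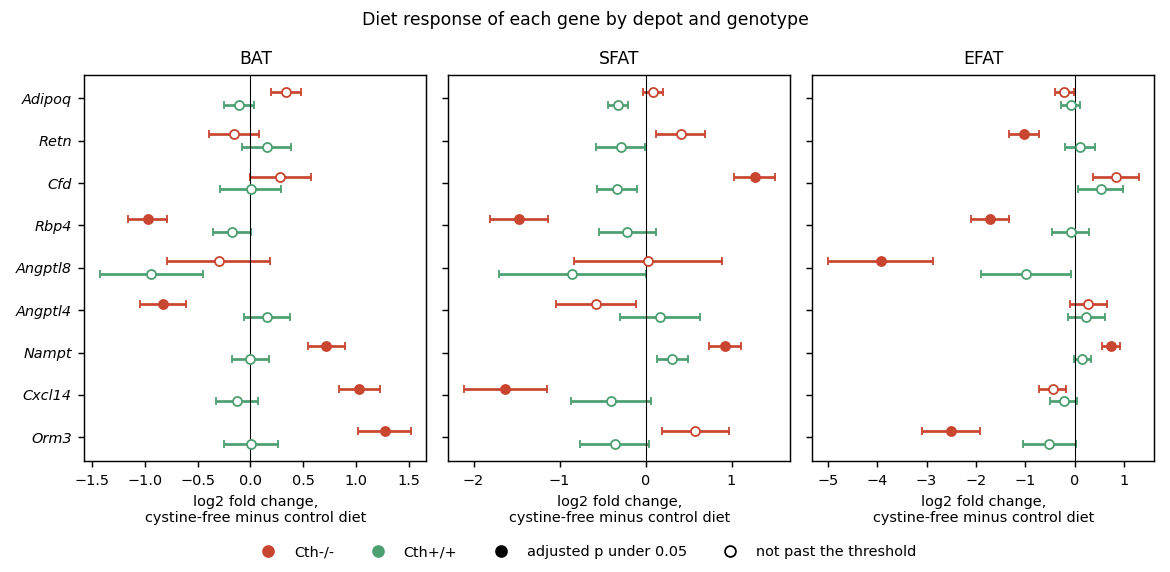
Change with the cystine-free diet (log2, cystine-free minus control) of each adipokine in knockout (red) and wild-type (green) mice of each depot; bars are 1 SE and filled points passed an adjusted p of 0.05. No wild-type point is filled, and the horizontal axes of the panels differ in range.

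Adiponectin transcripts did not pass the diet test in the knockout of any depot. Adipoq (ENSMUSG00000022878, chr16:23146536-23158028, GRCm38, plus strand) stood at 484 to 749.6 CPM in BAT of knockout mice on the control diet and 669 to 881 on the cystine-free diet, at 1484 to 1583 and 1336 to 1889 in SFAT, and at 1610.3 to 2256 and 1368 to 1689 in EFAT. Its changes were 0.34 ± 0.14, 0.09 ± 0.12 and -0.21 ± 0.19 log2 (adjusted p = 0.115, 0.645 and 0.433). The other adipocyte genes summed to 32633 to 43550.2 CPM on the control and 53225 to 59284 on the cystine-free diet in BAT, where 7 of 23 rose and 3 fell. In SFAT the sums were 27183 to 35440.4 and 32574 to 39748 (7 rose, 3 fell), and in EFAT 30155 to 47774 and 20615 to 27529.8 CPM, where 11 of 23 fell and 1 rose. In whole tissue, fewer cells of a type and less RNA per cell cannot be told apart. Of 7 genes for chaperones and enzymes of adiponectin assembly, 0 passed in BAT (medians 0.00, -0.12 and -0.41 log2 in BAT, SFAT and EFAT). In SFAT Plod1 (-0.50 ± 0.12 log2) and P4hb (-0.45 ± 0.13) fell, and in EFAT Plod1, P4hb and Plod3 (-0.87 ± 0.22) fell. Plod1 and Plod3 hydroxylate collagen-like lysines, of which adiponectin has several, and P4hb is protein disulfide isomerase. The adiponectin receptor Adipor2 rose by 0.68 ± 0.14 log2 in SFAT and 0.52 ± 0.18 in EFAT, while T-cadherin (Cdh13), which binds adiponectin at the cell surface, fell in BAT (-0.55 ± 0.18).

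Resistin fell in EFAT of the knockout and did not pass in the other depots. Retn (ENSMUSG00000012705, chr8:3655770-3660110, plus strand) was at 949.8, 521, 1172 and 422 CPM in EFAT of knockout mice on the control diet and at 543, 314, 277 and 277 on the cystine-free diet. The groups overlapped, since 2 control libraries lay within the range of the other diet. The change was -1.02 ± 0.31 log2 (adjusted p = 0.0231), and it lost the call without numbers 17 and 20 (-0.84, adjusted p = 0.2) and without any 1 of numbers 12, 14, 17, 18 and 20 (adjusted p = 0.0595 to 0.0878). In SFAT the estimate was 0.41 ± 0.29 (adjusted p = 0.319) and in BAT -0.15 ± 0.24 (0.696). The response differed between EFAT and SFAT by -1.48 ± 0.42 log2 (adjusted p = 0.0354), which became -1.42 (0.161) without the libraries that stood apart. Knockout mice on the cystine-free diet had less Retn than wild-type mice on that diet in EFAT (-1.27 ± 0.31 log2, adjusted p = 0.00527).

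The vitamin A carrier Rbp4 (ENSMUSG00000024990, chr19:38116629-38125281, minus strand) fell in every depot of the knockout. In BAT the libraries stood at 48.4, 40.3, 39.2 and 31.1 CPM on the control diet and 23.1, 20.1, 19.7 and 17.9 on the cystine-free diet. Every library on the cystine-free diet was below every control library, and the level fell by 1.96-fold (-0.97 ± 0.19 log2, adjusted p = 0.00265). In SFAT they stood at 167, 96.0, 145 and 96.5 CPM and 61.6, 39.0, 55.8 and 23.1 CPM, again without overlap, a drop of 2.77-fold (-1.47 ± 0.34 log2, adjusted p = 0.00553). In EFAT they stood at 249, 173, 228 and 85.2 CPM and 80.6, 41.9, 56.5 and 30.8 CPM. The groups were apart there too, with a drop of 3.29-fold (-1.72 ± 0.39 log2, adjusted p = 0.00559), but the call was lost without numbers 17 and 20 (-1.36, adjusted p = 0.0917). In the fit of all depots, which has no term for the library number, no difference in response between depots passed (adjusted p = 0.711, 0.249 and 0.754 for the 3 pairs). Deviations of Rbp4 from its group means correlated by library number in each pair of depots (r = 0.84, 0.85 and 0.85). The failed tests therefore do not show that the responses are alike. Rbp4 was also the 1 member to pass between genotypes on the control diet, in BAT, with 74.8, 87.2, 65.8 and 78.3 CPM in wild type: the knockout was lower by 0.92 ± 0.18 log2 (adjusted p = 0.023), where 2.1% of all genes passed. Leaving out number 1, 2, 4, 13 or 15 ended that call, with 0 of 9 members then passing.

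Orm3 (ENSMUSG00000028359, chr4:63356162-63359511, plus strand) went in opposite directions in brown and visceral fat. In BAT of the knockout the levels were 4.25, 6.35, 5.28 and 6.05 CPM on the control diet and 13.4, 14.3, 11.6 and 13.5 on the cystine-free diet. All 4 on the cystine-free diet were the higher ones, a 2.42-fold rise (1.27 ± 0.25 log2, adjusted p = 0.0031). In EFAT the levels were 5.21, 4.43, 3.27 and 1.86 CPM and 0.970, 0.670, 0.0659 and 0.706 CPM. All 4 on the cystine-free diet were the lower ones, and 1 of them, number 18, held 2 reads, so the fitted change of -2.51 ± 0.58 log2 (adjusted p = 0.00629) has a wide error. In SFAT the change of 0.58 ± 0.39 did not pass (adjusted p = 0.308). The EFAT response differed from BAT by -3.81 ± 0.62 log2 (adjusted p = 7.8e-05) and from SFAT by -3.11 ± 0.62 (0.00358). Without the libraries that stood apart these were -4.02 (adjusted p = 0.00111) and -3.05 (0.0539), and the EFAT change was -2.76 (0.0554). Orm3 has close paralogs, Orm1 and Orm2, and reads could be split among them, so its level is uncertain. Orm1 was the more abundant, at 102 to 118 CPM in BAT of the knockout on the control diet and 72.3 to 94.1 on the cystine-free diet, and at 45.4 to 181 and 2.80 to 21.8 in EFAT, where it fell (-3.25 ± 0.61 log2).

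Adipsin rose in SFAT of the knockout, which made it the most abundant Cfd group of the 12. Cfd (ENSMUSG00000061780, chr10:79890853-79892655, plus strand) was at 2298, 2804, 3039 and 3619 CPM on the control diet and at 7039.6, 7076, 7959 and 5723 on the cystine-free diet. The groups did not overlap, and the rise was 2.41-fold (1.27 ± 0.24 log2, adjusted p = 0.00151). In wild-type SFAT the diet gave -0.34 ± 0.23 log2, and the interaction of genotype and diet was 1.60 ± 0.33 (adjusted p = 0.00386). It was the 1 member of 9 with an interaction in SFAT, where 21.7% of all genes had one. In EFAT, too, the 4 libraries on the cystine-free diet (5216, 3621, 4224 and 3868 CPM) were above the 4 controls (1598, 2742, 2973 and 2827 CPM). The estimate of 0.84 ± 0.46 log2 did not pass in the fit of all 4 groups (adjusted p = 0.182) and passed with only the 2 groups in the fit (0.80, 0.0344). In BAT the diet groups were narrowly apart as well, at 370 to 441 CPM on the cystine-free and 285 to 368 on the control diet. The change of 0.28 ± 0.29 log2 did not pass there (adjusted p = 0.534). Around factor D in the alternative complement pathway, factor B (Cfb), its substrate, fell in every depot of the knockout, by 1.78 ± 0.35 log2 in BAT, 1.67 ± 0.17 in SFAT and 1.61 ± 0.18 in EFAT. Of the pathway's measured genes 0 rose and 6 of 11 fell in BAT, 1 rose and 4 of 11 fell in SFAT, and 2 rose and 4 of 12 fell in EFAT (medians -0.61, -0.91 and 0.19 log2). Properdin (Cfp), which stabilises the convertase, fell in all 3 depots (-1.12 ± 0.27, -1.65 ± 0.35 and -1.01 ± 0.19), and decay-accelerating factor (Cd55), an inhibitor of the convertase, fell likewise (-1.37 ± 0.26, -1.14 ± 0.22 and -0.88 ± 0.20). Macrophage markers fell with them: 12 of 15 genes in BAT, and 10 and 9 of 16 in the white depots SFAT and EFAT (1 symbol of that list has a pair of rows there), and the list summed to 143 to 227 CPM on the control and 91.4 to 116 on the cystine-free diet in BAT, to 1045 to 3239.8 and 613 to 1082 in SFAT, and to 964 to 1114 and 509 to 768 in EFAT. Their part in the complement changes was not tested.

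The fasting-linked lipase inhibitor Angptl4 (ENSMUSG00000002289, chr17:33773750-33781830, minus strand) passed no test for a rise. It fell in BAT, from 97.9, 166, 157 and 195 CPM to 90.5, 54.6, 128 and 70.2 CPM. The ranges overlapped, the change was -0.83 ± 0.22 log2 (adjusted p = 0.0168), and it did not pass with only the 2 groups in the fit (adjusted p = 0.0546). In SFAT the estimate was -0.58 ± 0.47 and in EFAT 0.28 ± 0.37 log2 (adjusted p = 0.398 and 0.591). Of 25 measured targets of PPAR other than the members, 8 rose and 0 fell in BAT. In SFAT 16 of 26 rose and 1 fell, and in EFAT 5 of 25 rose and 1 fell (medians 0.31, 0.91 and 0.48 log2, beside the all-gene medians above). Those with the largest change were Plin5 in BAT (0.91 ± 0.25 log2), which coats lipid droplets in oxidative cells, Cpt1b in SFAT (2.08 ± 0.43), the gate of mitochondrial fatty acid uptake, and Pdk4 in EFAT (2.28 ± 0.53), which restrains glucose oxidation. Of 19 genes raised by glucocorticoids or fasting, 11 rose in each depot (of 18 measured in EFAT, medians 0.98, 1.09 and 1.13 log2), Fkbp5 by 3.02 ± 0.44, 2.10 ± 0.33 and 1.57 ± 0.22 log2.

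The feeding-linked Angptl8 (ENSMUSG00000047822, chr9:21835510-21837347, plus strand, inside Dock6 of the other strand, sharing 0 exon bases with it) spread widely within groups. In EFAT of the knockout it was at 78.2, 3.32, 32.8 and 2.87 CPM on the control diet and 1.97, 3.28, 1.12 and 0.738 on the cystine-free diet. Numbers 12 and 14 were high and 13 and 15 low among the controls, and the lowest control lay within the range of the other diet. The fitted drop was 3.94 ± 1.07 log2 (adjusted p = 0.0142), -2.75 without number 12 (adjusted p = 0.0628) and -4.17 without numbers 17 and 20 (0.101), so that either ended the call. In SFAT numbers 12 and 14 were again the high controls, with 38.4, 5.64, 17.2 and 5.72 CPM for 12 to 15 and 10.2, 50.2, 3.69 and 3.49 on the cystine-free diet, a change of 0.03 ± 0.86 log2 (adjusted p = 0.987). In BAT the levels were 44.8, 20.8, 22.5 and 12.1 and 20.3, 44.5, 10.6 and 6.29 CPM, a change of -0.30 ± 0.49 (0.712). The EFAT response differed from that of BAT by -3.71 ± 1.27 log2 (adjusted p = 0.0398, and 0.118 without the libraries that stood apart). Of 17 genes that insulin or lipogenic factors raise, 11 fell and 1 rose in EFAT, 5 fell in BAT and 1 fell in SFAT (medians -1.79, -0.32 and 0.08 log2). In EFAT the largest drops were in Dgat2 (-3.83 ± 0.46 log2), the last enzyme of triglyceride synthesis, Pnpla3 (-3.25 ± 0.38) and ATP citrate lyase (Acly, -2.87 ± 0.75). Around lipoprotein lipase, 4 of 9 measured genes rose in BAT, 3 of 10 rose and 1 fell in SFAT, and 3 of 10 rose and 3 fell in EFAT. The lipase itself (Lpl) rose in BAT (1.06 ± 0.17) and fell in EFAT (-1.09 ± 0.25), while its capillary anchor Gpihbp1 rose in all 3 depots, by 0.60 ± 0.11, 0.60 ± 0.21 and 0.46 ± 0.14 log2.

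**Figure D4:**
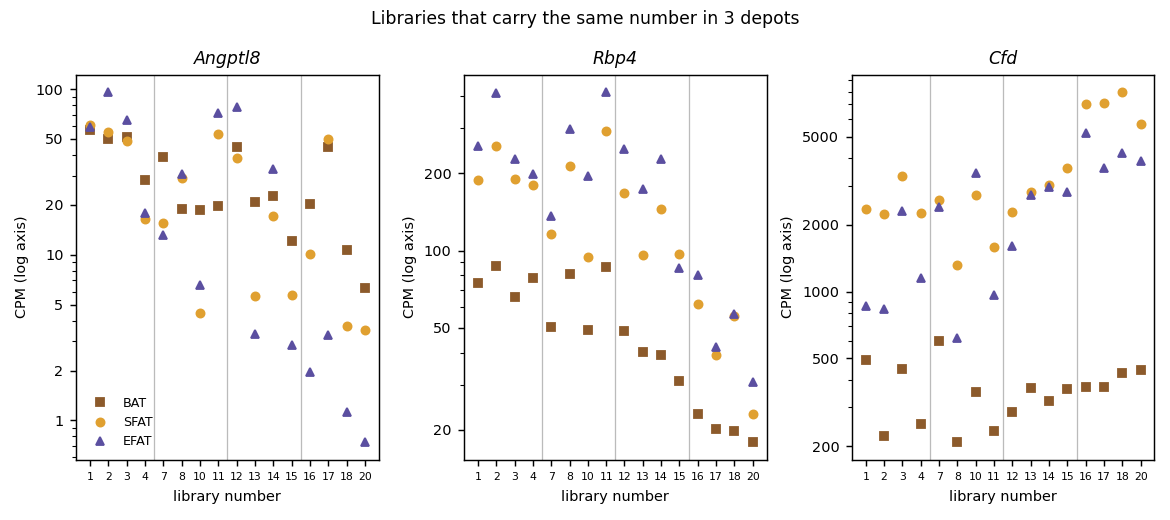
CPM of Angptl8, Rbp4 and Cfd by library number, on log axes, with 1 symbol per library, a shape and colour for each depot and vertical lines between the 4 groups (wild type on control, wild type on cystine-free, knockout on control, knockout on cystine-free diet). Among knockout controls Angptl8 is high in numbers 12 and 14 and low in 13 and 15 in EFAT and SFAT.

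The NAD salvage enzyme Nampt (ENSMUSG00000020572, chr12:32819545-32853349, plus strand) rose in every depot of the knockout. In BAT the controls were at 318, 445, 304 and 417 CPM and the cystine-free libraries at 445, 616, 621 and 726. The highest control and the lowest of the other diet met at 445 CPM, and the rise was 1.65-fold (0.72 ± 0.18 log2, adjusted p = 0.0115). In SFAT they were at 123, 120.2, 142 and 102 and 157, 239, 194 and 307 CPM, without overlap, a rise of 1.90-fold (0.92 ± 0.18 log2, adjusted p = 0.00211). In EFAT they were at 102, 101, 123 and 99.9 and 124, 182, 145 and 204 CPM. Here the groups were apart, with a rise of 1.67-fold (0.74 ± 0.17 log2, adjusted p = 0.00713) that was 0.41 (adjusted p = 0.151) without numbers 17 and 20. The 3 tests of a difference between depots, again with no term for the library number, did not pass (adjusted p = 0.809, 0.959 and 0.616). Nampt deviations correlated by number between EFAT and SFAT (r = 0.80), and the failed tests do not show like responses. Among other genes of NAD synthesis and use, 3 of 14 rose in BAT and 7 of 16 in SFAT, with 0 lower in both, and 3 of 16 rose and 2 fell in EFAT (medians 0.04, 0.41 and 0.05 log2). Nnmt, which methylates and so removes nicotinamide, rose in BAT (1.17 ± 0.31 log2) and fell in EFAT (-1.89 ± 0.30). Slc25a51, the mitochondrial NAD carrier, rose in BAT (0.71 ± 0.13) and SFAT (0.82 ± 0.15).

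The chemokine Cxcl14 (ENSMUSG00000021508, chr13:56288643-56296551, minus strand) rose in BAT and fell in SFAT of the knockout. In BAT it was at 21.1, 15.3, 10.6 and 16.2 CPM on the control diet and at 34.8, 27.0, 40.4 and 26.0 on the cystine-free diet. The groups did not overlap (1.03 ± 0.20 log2, adjusted p = 0.00254). In SFAT it was at 43.3, 20.9, 40.1 and 18.9 CPM and 13.5, 4.01, 3.33 and 18.2 CPM, with groups that were narrowly apart (-1.63 ± 0.48 log2, adjusted p = 0.0216). That call was lost without number 12 (adjusted p = 0.0624), without number 17 (0.0608) and with only the 2 groups in the fit (0.0608). Without numbers 15, 16 and 20 the change was -3.24 (adjusted p = 0.000961). That left out the highest libraries of the cystine-free group (13.5 and 18.2 CPM) and kept only those at 4.01 and 3.33. In EFAT it was low throughout, 2.51 to 5.05 and 2.01 to 3.59 CPM, with a change of -0.44 ± 0.28 (adjusted p = 0.246). The SFAT response differed from BAT by -2.68 ± 0.50 log2 (adjusted p = 0.00248). It was -3.18 without the libraries that stood apart, among them SFAT number 20, at 18.2 CPM the highest of its group. It was the 1 member of 9 that separated SFAT from BAT, where 2.16% of all genes did. Markers of fibroblasts and adipocyte progenitors fell in both depots, 12 of 15 in BAT and 14 of 15 in SFAT, with sums of 1260.4 to 1869.5 CPM on the control and 649.8 to 807 on the cystine-free diet of BAT, and of 10759 to 22129 and 3508 to 6183 for SFAT. Their part in the Cxcl14 levels was not tested.

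Beyond the diet comparison, genotypes were compared on each diet. On the control diet 0 of 9 members passed in SFAT and 0 in EFAT (0.103% and 0.0464% of all genes), with 1 and 0 at an unadjusted p under 0.05. On the cystine-free diet the knockout differed in 7 of 9 members in BAT, 5 in SFAT and 6 in EFAT, where 31.6%, 37.5% and 39.7% of all genes passed. The BAT count was 2 with the muscle list as a covariate (9.71% of all genes). The EFAT count was 1 without the libraries that stood apart (20.1% of all genes), 1 with a term for the library set, a split of the libraries by reads of the pseudogene Gm43512 (20.9%), and 0 within its set A (0.465%). These comparisons share the libraries of knockout mice on the cystine-free diet with the diet comparison, so they are not a separate check of it. Rbp4 was lower in the knockout by 1.72 ± 0.19, 1.98 ± 0.34 and 2.23 ± 0.40 log2 in BAT, SFAT and EFAT, and Nampt was higher by 0.79 ± 0.18, 0.85 ± 0.18 and 0.61 ± 0.17. Adipoq, which passed in no diet comparison, was higher in the knockout by 0.63 ± 0.14 log2 in BAT (adjusted p = 0.00327) and 0.38 ± 0.12 in SFAT (0.021), with ranges apart in both. In BAT Cxcl14 (1.12 ± 0.20 log2) and Orm3 (1.39 ± 0.25) were also higher, and Retn (-0.88 ± 0.24) and Angptl4 (-0.65 ± 0.22) lower. In SFAT Cfd was higher (1.78 ± 0.24) and Cxcl14 lower (-1.80 ± 0.48). In EFAT Cfd was higher (1.27 ± 0.47), and Orm3 (-2.01 ± 0.58) and Angptl8 (-3.99 ± 1.07) were lower, as was Retn. The interaction, which asks whether the diet response differs between genotypes, passed in BAT for Cxcl14 (1.16 ± 0.28 log2, adjusted p = 0.0232) and Orm3 (1.26 ± 0.36, 0.0468), 2 of 9 against 6.42% of all genes. Without the muscle-rich library number 8, Orm3 was at 1.08 (adjusted p = 0.0701), and its call was lost in 14 of the 16 cases with 1 library left out (at most 0.105). That of Cxcl14 was lost without number 18 (0.053). In EFAT the edgeR test called 0 of 9 (10.4% of all genes), with 5 at an unadjusted p under 0.05. DESeq2, run without the count filter, called 3 there (2896 of 30918 genes, 9.37%, against 1792 of 17248 by edgeR). For Nampt and Rbp4, which passed in the knockout of all depots and in no wild-type depot, the interaction did not pass (adjusted p = 0.0964, 0.1 and 0.131 for Nampt in BAT, SFAT and EFAT, and 0.0777, 0.068 and 0.0636 for Rbp4), so the response was not shown to differ between genotypes.

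Between depots, in the fit with no term for the library number, 3 of 9 members differed in their knockout response in EFAT against BAT (Orm3, Angptl8 and Cxcl14, the last by -1.52 ± 0.51 log2, adjusted p = 0.0352), where 16.2% of all genes did, and 2 of 9 in EFAT against SFAT (Retn and Orm3), against 4.38%. Without the libraries that stood apart these counts were 1 (Orm3) and 0, where 6.21% and 0.313% of all genes passed. Leaving out 1 library at a time, the EFAT against BAT difference also lost its call for Angptl8 in 9 of 16 cases (-2.55 without number 12 of the EFAT controls, adjusted p = 0.184) and for Cxcl14 in 7, and the EFAT against SFAT difference of Retn lost it in 9 (adjusted p at most 0.147). Over the 12 groups, the highest means were those of EFAT for Adipoq, Retn, Rbp4 and Angptl8, of SFAT for Cfd, Angptl4 and Cxcl14, and of BAT for Nampt and Orm3. Most neighbours in that order could not be told apart: of 11 pairs of neighbouring groups per gene, the ranges were apart in 3 for Cfd, 2 for Rbp4, 0 for Angptl4 and 1 for each of the others.

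Of other adipokines of a wider list, more fell than rose in each depot, and in BAT and EFAT most did not pass. In BAT 3 of 32 measured rose, 8 fell and 21 did not pass (all genes: 7.81% higher and 10.2% lower). In SFAT 5 of 36 rose, 17 fell and 14 did not pass (all genes: 11.8% and 13.6%), and in EFAT 4 of 35 rose, 11 fell and 20 did not pass (14.5% and 14.3%). The list's medians were -0.40, -0.78 and -0.40 log2, beside the all-gene medians above. Fibrillin-1 (Fbn1), whose cleaved end is the fasting hormone asprosin, fell in all 3, by 1.58 ± 0.20, 2.80 ± 0.28 and 2.46 ± 0.32 log2, and the vascular peptide apelin (Apln) fell in EFAT (-3.89 ± 0.67). Bmp8b, a factor of thermogenic fat, rose in BAT (2.23 ± 0.42). Of receptors and binding partners of the 9 proteins, 1 of 8 rose and 2 fell in BAT, and of 10 measured 2 rose and 2 fell in SFAT and 2 rose and 1 fell in EFAT. The insulin receptor gene (Insr) rose in each depot, by 0.62 ± 0.12, 0.58 ± 0.09 and 0.52 ± 0.09 log2.

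Markers of other tissues moved with some of these comparisons. In BAT 13 of 18 skeletal muscle genes fell in the knockout on the cystine-free diet, with sums of 190.5 to 1867 CPM on the control and 7.26 to 299.98 on the cystine-free diet. With the muscle list as a covariate 5.21% of all genes passed there, against 18.0% without it, and 1 of 9 members was called, Cxcl14 (1.35 log2, adjusted p = 0.00852), while Rbp4 was at -0.69 (0.104), Nampt at 0.68 (0.149), Angptl4 at -0.65 (0.211) and Orm3 at 0.74 (0.148). In EFAT epithelial and epididymal markers summed to 21.0 to 171 CPM on the control and 94.1 to 502 on the cystine-free diet, 3 of 9 being higher. Neutrophil markers summed to at most 16.9 CPM in any library. Liver also makes Rbp4, orosomucoids and Angptl8, and its markers summed to 826 to 2197 and 3562 to 7757 CPM in EFAT. Cyp2e1 alone held 813 to 2161 and 3552 to 7752 CPM of this. Albumin (Alb) was at 4.12 to 24.9 and 1.57 to 4.38 CPM, and Apoa1 and Serpina1a were at no more than 1.51. Endothelial markers fell in no depot, with 1 of 10 higher in BAT and SFAT and 3 in EFAT. B cell markers fell in SFAT, 12 of 12, while BAT had 2 of 3 lower and EFAT 1 of 12 (Ighm, -3.95 ± 0.43 log2), with sums of 14.2 to 31.0 CPM on the control and 4.21 to 11.7 on the cystine-free diet in BAT, 134 to 556 and 35.6 to 88.1 in SFAT, and 162 to 752 and 33.1 to 40.3 in EFAT. The muscle sums nearly separate the diet groups of knockout BAT, so the fit with that covariate cannot tell diet from muscle. The part of these cells in the adipokine levels, muscle included, was not tested.

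The libraries also fell into a pair of sets, A and B, by reads of the pseudogene Gm43512 (under or over 0.1 CPM), 9 and 7 in each depot. In EFAT set and diet were unevenly joined: the knockout controls had 3 libraries of set A and 1 of B, and the cystine-free group 1 and 3. With the set as a term in the EFAT fit, 18.1% of all genes passed and 3 of 9 members were called: Rbp4 (-1.38 log2, adjusted p = 0.0371), Nampt (0.61, 0.0457) and Orm3 (-2.03, 0.0295). Within set A alone, 1 was called in BAT (11.8% of all genes), 4 in SFAT (27.3%) and 0 in EFAT (0.356%), where 1 library stands for the cystine-free group and is assumed to vary like the others. Within set A of SFAT, Retn passed (0.99 log2, adjusted p = 0.00591) and Cxcl14 did not (-1.52, 0.0525).

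**Figure D5:**
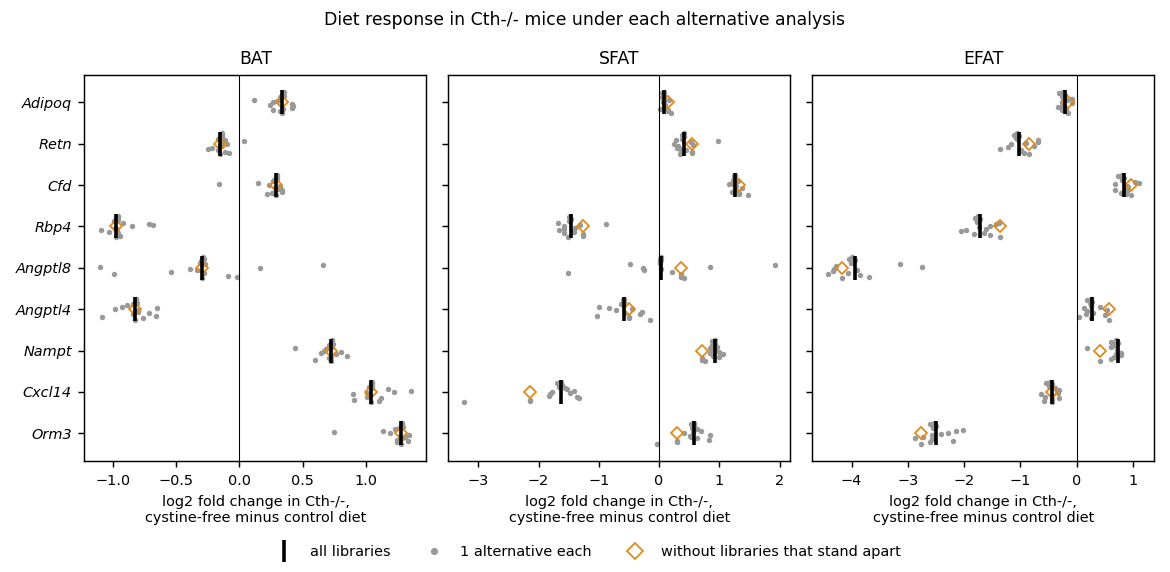
Change of each adipokine in knockout mice (log2, cystine-free minus control) under each alternative processing, by depot; the black bar is the value with all libraries and the orange diamond the value without the libraries that stood apart. Rbp4 stays below 0 and Nampt above 0 in each depot, while the Angptl8 values of SFAT lie on both sides of 0.

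For each adipokine, the other protein-coding genes with the most similar pattern were sought by Pearson correlation of log2 CPM over the 48 libraries after the mean of each depot was removed, among 10316 genes averaging 5 CPM or more. The points share libraries, depth and groups, so these are descriptions. Rbp4 had the closest matches, Dhx32 (0.96), Anxa2 (0.96), Ppp2r5b (0.95). Among the closest to Angptl8 were Ppp1r3b (0.93) and Sc5d (0.91), the latter an enzyme of cholesterol synthesis. Nampt was closest to Tmem57 (0.90), C330007P06Rik (0.89), Grsf1 (0.88), and Retn to Psmb7 (0.89), Ap4s1 (0.89), 1500011K16Rik (0.89). Cfd was closest to Cadps2 (0.85), Slc1a3 (0.84), Las1l (0.83), Orm3 to 2010003K11Rik (0.81), Msra (0.78), Clstn3 (0.78) and Adipoq to Ces1d (0.79), Ttc38 (0.79), Ctsf (0.78). The weakest matches were those of Cxcl14, Kcnh2 (0.68), Folh1 (0.61), Ankrd29 (0.60), and of Angptl4, Tpst1 (0.64), Neurl3 (0.62), Cldn5 (0.62).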

How the data were processed

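The submitters' processing notes name FastQC, STAR, Picard and RSEM with build mm10. Versions: not given in the sources used here. The authors deposited RSEM expected counts per gene for 48 poly(A) libraries, 16.2 to 46.0 M per library. Of these values 5.31% to 8.16% per library were not whole, and all were rounded. RSEM shares reads among similar genes by estimation, which bears on Orm3.

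Genes were tested with edgeR 4.0.16 (R 4.3.3, quasi-likelihood, TMM scaling, filterByExpr with a minimum count of 10 and total of 15), on the 4 groups of a depot, and between depots on all 48 libraries. Benjamini-Hochberg adjustment ran over all genes tested, with a threshold of 0.05, and SE is the log2 change divided by the square root of F. The fit was tested on simulated data. Printed CPM use TMM factors over 48 libraries. Coordinates come from a GRCm38 gene annotation, promoters from RefSeq.

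Members and gene lists were chosen with earlier results of these data known. All 9 members are named with their values. From each list, counts are given, and genes named are among up to 3 passing genes per depot that changed most and averaged at least 5 CPM, with their values in other depots where they passed, and Orm1 and Cyp2e1 as the paralog and the leading liver gene. A few genes that these rules give are not reported here. Library numbers recur across depots. Over all genes, same-numbered libraries deviated together in some cases and not in others, with median correlations above those of different numbers. The labels do not say what a shared number means, so the main fits did not treat these libraries as pairs. Single members did deviate together by number, and the tests between depots leave that dependence out. Alternatives were other scaling, no filter, DESeq2 1.42.0, other designs and left-out libraries.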

Additional observations from a re-analysis of the deposited data

Results flagged for a closer look

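In 10 of the 108 groups of 4 libraries, 1 library lay far from the other 3 on the log2 scale. By chance about 1 group in 20 would show this. Cfd was at 3320 CPM in SFAT library 3 of wild-type mice on the control diet (the others 2238 to 2356), and at 1598 in EFAT library 12 of knockout controls (2742 to 2973). Angptl8 was at 38.7 CPM in BAT library 7 of wild-type mice on the cystine-free diet (18.6 to 19.6) and at 16.5 in SFAT library 4 of wild-type controls (48.9 to 60.7). The same number 7 gave the low Adipoq value of 1125 CPM in SFAT (1297 to 1310.0). Rbp4 was at 255 CPM in SFAT library 2 of wild-type controls (180 to 190). Nampt was at 123 CPM in EFAT library 14 of knockout controls (99.9 to 102). Cxcl14 was at 19.5 CPM in BAT library 10 (12.7 to 13.6) and at 4.46 in EFAT library 8 (2.95 to 3.11), both of wild-type mice on the cystine-free diet. Orm3 was at 0.0659 CPM, from 2 reads, in EFAT library 18 of knockout mice on the cystine-free diet (0.670 to 0.970).

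Responses that differed between groups by a test of the difference itself were 9. The diet response differed between genotypes for Cxcl14 (1.16 log2, knockout minus wild type) and Orm3 (1.26) in BAT and for Cfd (1.60) in SFAT. The response of the knockout differed between depots for Cxcl14 (-2.68 for SFAT minus BAT and -1.52 for EFAT minus BAT), for Orm3 (-3.81 for EFAT minus BAT and -3.11 for EFAT minus SFAT), for Angptl8 (-3.71 for EFAT minus BAT) and for Retn (-1.48 for EFAT minus SFAT).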

How the results depend on the processing

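Of 385 alternative counts of members called, 323 stayed within 1.5 times the count reported, and of 870 alternative values of single members 776 kept direction and side of the threshold. In the diet comparison of the knockout, the counts became 1 in BAT within set A and 1 with the muscle list as a covariate, and in EFAT 3 when library set was a term, 0 within set A and 0 without the libraries that stood apart (an alternative added after the data were seen, as were library totals alone and SFAT without numbers 15, 16 and 20). For genotype on the cystine-free diet they became 2 in BAT with the muscle covariate, and in EFAT 1 with the set term, 0 within set A and 1 without the libraries that stood apart. On the control diet SFAT had 2 within set A (8.37% of all genes). DESeq2 ran without the count filter, so its shares are of more genes than those of edgeR. Interactions in BAT became 5 by DESeq2 (1481 of 26114 genes, 5.67%, against 932 of 14528 by edgeR). They became 1 within set A (4.92% of all genes), with the muscle covariate (2.47%) and without library 8 (5.4%). In SFAT they became 3 by DESeq2 (4193 of 29619 genes, 14.2%, against 3600 of 16555 by edgeR). With the set term (25.4%), within set A (12.6%) and without numbers 15, 16 and 20 (10.8%) they became 2. In EFAT they became 3 by DESeq2 (2896 of 30918 genes, 9.37%, against 1792 of 17248 by edgeR). Between depots the knockout response of EFAT against BAT gave 1 without the libraries that stood apart (6.21% of all genes). For EFAT against SFAT it gave 0 without them (0.313%) and 1 with library totals alone (0.741%). At baseline EFAT against SFAT gave 3 by DESeq2 (3000 of 32736 genes, 9.16%, against 2793 of 18348 by edgeR). Leaving out 1 library at a time gave 0 to 1 for genotype on the control diet in BAT, 1 to 3 for the BAT, 1 to 2 for the SFAT and 0 to 2 for the EFAT interaction, 3 to 5 for the knockout diet comparison in EFAT, 1 to 5 for the response of EFAT against BAT, 1 to 4 for EFAT against SFAT, and 1 to 2 for EFAT against SFAT at baseline. The share of all genes was not set beside these counts, so they do not show whether the members moved differently from other genes. Directions turned in 9 of 870 values, none of them called: Retn in BAT within set A (0.039), Orm3 in SFAT without numbers 15, 16 and 20 (-0.036), Cfd in BAT with the muscle covariate (-0.16), Angptl8 in BAT within set A (0.66) and without number 12 (0.16, and -0.99 to 0.16 over all libraries left out in turn), and Angptl8 in SFAT with the set term (-0.48) and without number 13 (-0.26), 15 (-0.26) or 17 (-1.51, and -1.51 to 0.85 over all). Apart from the smaller number of libraries in those left out, the cause of these changes was not tested. Counting error limits Orm3 in EFAT (2 to 39 reads on the cystine-free diet) most among the members.

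The library number as a replicate block in the fit of all depots raised the count to 7 for the response of EFAT against BAT. There 23.1% of all genes passed, against 16.2% without the block. For EFAT against SFAT at baseline the count was raised to 3, with 19.5% of all genes against 15.2%. The correlation of same-numbered libraries' deviations had a median of 0.18 for SFAT and BAT, 0.03 for EFAT and BAT and 0.12 for EFAT and SFAT. For different numbers of the matching group the medians were -0.06, -0.02 and -0.05. The same-numbered correlation was over 0.1 in 10, 6 and 10 of 16 pairs. Among the 4 libraries of the matching group, 9, 5 and 9 of 16 libraries correlated best with their own number. Within a depot no paired analysis was possible because the groups share no numbers.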

Other observations

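Single adipokines did vary together by library number across depots. For each of the 9 genes, deviations of log2 CPM from the group mean were compared between depots over the 16 library numbers, in 27 correlations with permutation within groups (100000 resamples, two-sided) and Benjamini-Hochberg adjustment. Between EFAT and SFAT 7 of 9 genes passed, with r of at least 0.74. The median r was 0.80 over the 9 and 0.34 over all 18283 genes with a value, of which 6.68% were at 0.74 or above. These are descriptions, and whether the adipokines differ from other genes in this was not tested. Cfd had a Pearson r of 0.91 (permutation p = 0.00156, adjusted 0.00702) and a Spearman rho of 0.90 (permutation p = 0.00296, adjusted 0.02), and r was 0.84 without the 2 numbers farthest from the median. Angptl8 had r = 0.87 (permutation p = 4e-05, adjusted 0.00108), rho = 0.85 (0.00011, adjusted 0.00297), and r was 0.87 without the 2 farthest. Rbp4 had r = 0.85 (permutation p = 0.00039, adjusted 0.00414), rho = 0.87 (0.00034, adjusted 0.00459), and r was 0.90 without the 2 farthest. Between SFAT and BAT 3 of 9 genes passed, and between EFAT and BAT 2 of 9. Of all genes 2.86% and 7.62% were at or above the lowest r of those, 0.74 and 0.58. Rbp4 was among them in both. Between SFAT and BAT it had r = 0.84, but its rho of 0.74 did not pass (adjusted permutation p = 0.0532). Between EFAT and BAT it had r = 0.85 and rho = 0.78 (adjusted permutation p of rho 0.0287). Angptl8 numbers 12 and 14 were high among knockout controls in both white depots, and number 17 was the highest of the knockout libraries on the cystine-free diet in all 3 depots. The labels do not say what a shared number means, and Adipoq and Cxcl14 passed in no pair of depots.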
